A study of Mus musculus with 13 samples.

Results

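Transcripts of 10 genes that act on the extracellular matrix were followed in whole lower incisors of newborn mice: the matrix metalloproteinases Mmp2, Mmp11, Mmp12, Mmp13, Mmp14 and Mmp16, the tissue inhibitors Timp1, Timp2 and Timp3, and the serine protease Htra1. They were chosen by name from the 34709 genes of the count table, with earlier results of these data known. All 10 were present, and all 10 passed the filter on low counts that left 17837 genes for testing. The incisors came from males 5 days after birth, and RNA-seq gave 3 libraries of VDRgem mutants, 5 of VDR-null mutants and 5 of controls, which the series describes as WT. VDRgem is known as a mutation of the vitamin D receptor that abolishes the response to the natural hormone while synthetic gemini analogs still act on it, and the VDR-null mutation is known to remove receptor function. The labels name no strain, allele design or diet, and no treatment was listed for any group. No label ties a library to an animal, although the incisors are called independent, and p-values therefore describe the spread among the incisors sampled.

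Matrix metalloproteinases are zinc enzymes made as inactive precursors that cut collagens and other matrix proteins once their prodomain is removed. Mmp14 sits in the cell membrane, where it can hold Timp2 and bring the precursor of Mmp2 into place for activation, so that Timp2 both inhibits the enzymes and takes part in turning one of them on. TIMPs bind the active site of metalloproteinases, and Htra1 is a secreted serine protease outside that family that also cuts matrix proteins. In teeth and the bone around them, metalloproteinases are known for the turnover of collagen in dentin, pulp, follicle and bone.

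Total counts ran from 20405188 in control 2 to 87783466 in VDRgem 3, and levels are given as CPM, counts scaled to the size of the library, after TMM scaling, with SD for the spread between libraries. Marker genes of odontoblasts and ameloblasts, the dentin- and enamel-forming cells, summed to 57662 to 152812 CPM and 15666 to 76086 CPM per library. Of these, the ameloblast marker Cldn16 had no count in 12 of 13 libraries and no other marker of either list was at 0. Most of the odontoblast sum was Col1a1, which is also in the osteoblast list. Col1a1 stood at 112289 to 120674 CPM in VDRgem, 39255 to 116247 CPM in VDR-null and 60981 to 103278 CPM in control. Vdr itself, the altered gene, stood at 107, 205 and 179 CPM in VDRgem 1, 2 and 3, at 204 to 281 CPM in VDR-null and at 142 to 180.3 CPM in control, and counts per gene do not show whether the transcript is altered. Libraries of 1 group were not alike. VDRgem 1 and 2 held far more RNA of oral keratinocyte markers than any other library, with a mean of 7.75 and 5.93 log2 CPM over 15 markers, against 2.14 in VDRgem 3, -1.07 to 0.84 in VDR-null and -0.71 to 2.5 in control. VDR-null 2 stood apart from the other VDR-null libraries, and the calls among the 10 genes are given with and without these libraries. In whole incisors a lower share of one cell type cannot be told apart from less RNA per cell.

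In VDRgem incisors 5 of the 10 genes rose against control and none fell: Htra1, Mmp2, Mmp11, Mmp14 and the scarce Mmp12. The rise was 1.95-fold for Htra1, 1.45-fold for Mmp2, 1.34-fold for Mmp14 and 1.33-fold for Mmp11. A gene was called when the Benjamini-Hochberg adjusted p of edgeR's quasi-likelihood test over all 17837 genes was under 0.05, and in this comparison 8.62% of all genes tested were called, 4.8% as higher and 3.82% as lower. No TIMP passed, although all 3 had positive fold changes. In VDR-null incisors none of the 10 passed against control, where 0.678% of all genes tested were called as higher and 0.656% as lower, and Mmp2, Mmp11, Mmp14 and Htra1 were also higher in VDRgem than in VDR-null.

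Sequences next to the start sites are shown for the 2 members whose windows hold an AP-1 motif, Mmp13 and Mmp12, and for 2 genes called in VDRgem, Htra1 and Mmp14. RefSeq promoter windows of GRCm38.p6, reaching from 250 bases before a start to 50 after it, were found for 8 of the 10 genes, and Mmp12 had 2 of them. The AP-1 motif TGANTCA, read on both strands, stood in the windows of Mmp13 and of the downstream Mmp12 start and in no other member window. Below, capitals mark that motif for Mmp13 and Mmp12, and every CG pair for Htra1 and Mmp14, all on the plus strand and written 5′ to 3′.
Mmp13, chr9:7272452-7272511: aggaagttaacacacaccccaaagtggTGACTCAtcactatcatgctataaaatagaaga
Mmp12, chr9:7347303-7347362: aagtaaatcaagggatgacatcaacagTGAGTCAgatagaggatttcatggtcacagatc
Htra1, chr7:130936051-130936110: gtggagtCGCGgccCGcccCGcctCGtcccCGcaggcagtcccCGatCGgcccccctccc
Mmp14, chr14:54431538-54431597: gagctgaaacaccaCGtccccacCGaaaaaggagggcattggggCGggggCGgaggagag

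In Mmp13 the AP-1 letters lay from -35 to -29 relative to the RefSeq start, and the sense-strand letters TATAAA followed from -16 to -11. In Mmp12 they lay from -44 to -38 relative to the downstream start, which is inside the gene, and TATAAA lay from 5 to 10 after it. TGANTCA was found in 7.81% of the 32851 windows of all genes and TATAAA in 8.32%, so that both are common. The EGR1 motif GCGTGGGCG, held by 0.612% of windows, and a direct-repeat vitamin D response element, held by 0.0396%, matched no member window, which says only that these letters are not in these windows. The windows otherwise differed by degrees in their number of CG pairs. Htra1 held 28 CG pairs in 300 bases, Timp2 25, Timp3 24, Mmp11 19, Mmp14 10 and Timp1 8, while Mmp13 held 1 and the Mmp12 windows 0 and 3. Called and uncalled genes stood at both ends of this range, Htra1 and Timp2 at the high end and Mmp12 and Mmp13 at the low end.

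Per kb of exon, which allows levels of different genes to be set side by side, gelatinase and inhibitor transcripts led the list. In control Mmp2 had the highest level at 325 CPM per kb, followed by Timp2 at 223 and Mmp14 at 197, the 3 genes of the activation complex at the cell surface. Mmp2 did not overlap Timp2 across the 5 controls, whereas Timp2 and Mmp14 overlapped. Mmp13, Timp1, Htra1 and Timp3 formed a middle tier at 57.5, 53.1, 52.6 and 50.8 CPM per kb in control, with overlapping ranges between neighbours. Mmp11 at 14, Mmp16 at 4.52 and Mmp12 at 0.0279 CPM per kb followed as separate steps. The same order held in VDRgem except for Htra1, whose mean per kb of exon stood at 102 CPM in VDRgem, above Mmp13 at 79.7, Timp1 at 76.1 and Timp3 at 65.7 CPM in VDRgem.

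**Figure D1:**
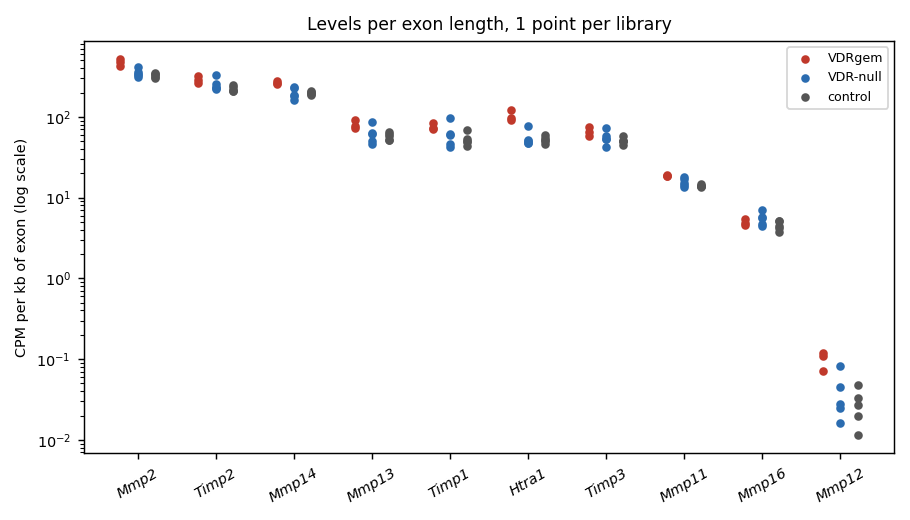
Levels of the 10 genes as CPM per kb of exon on a log axis, 1 point per library, with VDRgem, VDR-null and control side by side for each gene. Mmp2, Timp2 and Mmp14 form the top tier, with control means of 325, 223 and 197, and Mmp12 lies lowest at 0.0279 in control.

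Htra1 (ENSMUSG00000006205, chr7:130936111-130985660, plus strand in GRCm38) showed the smallest p-value of the 10 in VDRgem against control. Its level was 347, 260.5 and 277 CPM in VDRgem 1, 2 and 3, 146, 223, 148, 138 and 135 CPM in VDR-null 1 to 5, and 146, 149.7, 157, 169.7 and 135 CPM in control 1 to 5. All VDRgem libraries lay above every VDR-null and every control library, and 4 of 5 VDR-null libraries lay within the control range, with VDR-null 2 above it. The group means were 295 ± 45.6 CPM in VDRgem (SD, n = 3), 158 ± 36.8 CPM in VDR-null (n = 5) and 151 ± 13 CPM in control (n = 5). The log2 fold change was 0.96 (SE 0.15, edgeR adjusted p = 0.0076) for VDRgem against control, rank 43 of all genes tested by p. It was 0.06 (SE 0.13, edgeR adjusted p = 0.827) for VDR-null against control. Of the 5 calls, that of Htra1 was the only one kept whichever single library was left out. Without VDRgem 1 it fell to 0.82 (edgeR adjusted p = 0.0489), and it was lost with VDRgem 1 and 2 both left out (0.86, adjusted p = 0.25) and with the keratinocyte level as a covariate (0.77, adjusted p = 0.232).

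Mmp2 (ENSMUSG00000031740, chr8:92827291-92853420, plus strand) encodes gelatinase A, a secreted enzyme that cuts denatured collagen and basement membrane collagen. It stood at 1733, 1453 and 1594 CPM in VDRgem, at 1062, 1401, 1211, 1142 and 1109 CPM in VDR-null, and at 1053, 1010, 1155, 1168 and 1099 CPM in control. Every VDRgem library lay above all others. Among VDR-null libraries, 2 of 5 lay above the highest control. Mean levels were 1593 ± 140.1 CPM in VDRgem, 1185 ± 133 CPM in VDR-null and 1097 ± 66.7 CPM in control (SD, n = 3, 5 and 5). VDRgem against control gave a log2 fold change of 0.54 (SE 0.10, edgeR adjusted p = 0.0117) and VDR-null against control 0.11 (SE 0.09, adjusted p = 0.488). The VDRgem call for Mmp2 was lost without VDRgem 1 (0.46, edgeR adjusted p = 0.0781) and held with any other single library left out.

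Mmp14 (ENSMUSG00000000957, chr14:54431612-54445364, plus strand) encodes the membrane-bound collagenase MT1-MMP, the activator of pro-Mmp2. Its level was 1636, 1506 and 1574 CPM in VDRgem, 956, 1354, 1393, 1121 and 1084 CPM in VDR-null, and 1175, 1137, 1203, 1245 and 1107 CPM in control. The VDRgem libraries were close together and above all others, while the VDR-null libraries lay on both sides of the control range, 2 above it and 2 below it. For VDRgem against control the log2 fold change was 0.42 (SE 0.12, edgeR adjusted p = 0.0375), and for VDR-null against control it was 0.01 (SE 0.10, adjusted p = 0.967) with a 95% interval of -0.19 to 0.21. The VDRgem call was lost when any single VDRgem or control library was left out, with edgeR adjusted p-values from 0.0599 without VDRgem 3 to 0.164 without VDRgem 1. The size in those fits was between 0.38 and 0.45, and scaling by library totals gave 0.25 (edgeR adjusted p = 0.0703).

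Mmp16 (ENSMUSG00000028226, chr4:17852893-18119145, plus strand), the second membrane-type enzyme of the set and also able to activate pro-Mmp2, differed from the other members. It held 41.7, 39.4 and 47.7 CPM in VDRgem, 39.1, 48.3, 49.8, 40.4 and 61.1 CPM in VDR-null, and 44.5, 38.2, 32.6, 44.4 and 36.3 CPM in control. VDRgem and control overlapped, and VDR-null 5 was the highest library of all. The log2 fold change was 0.13 (SE 0.14, edgeR adjusted p = 0.624) for VDRgem against control and 0.29 (SE 0.12, adjusted p = 0.191) for VDR-null against control. Mmp16 was the only member with a higher mean in VDR-null than in VDRgem.

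Mmp11 (ENSMUSG00000000901, chr10:75923222-75936496, minus strand), or stromelysin-3, is made mainly by stromal cells and is activated inside the cell by furin. Its level was 53.0, 51.1 and 51.7 CPM in VDRgem, 37.6, 47.0, 49.8, 42.1 and 39.7 CPM in VDR-null, and 38.4, 37.8, 39.1, 38.5 and 41.1 CPM in control. VDRgem libraries differed by less than 2 CPM and all lay above the highest VDR-null library, and 3 VDR-null libraries lay above every control. VDRgem against control gave 0.41 on the log2 scale (SE 0.09, edgeR adjusted p = 0.0151) and VDR-null against control 0.15 (SE 0.07, adjusted p = 0.254). The call was lost without VDRgem 1 (0.39, edgeR adjusted p = 0.0855) and held with any other single library left out. Exons of Mmp11 share 155 bases with Chchd10 on the opposite strand, which held 3.59 to 18.1 CPM, with means of 14.9 CPM in VDRgem, 5.92 CPM in VDR-null and 9.72 CPM in control, so that its mean was also highest in VDRgem. As the strand setting of the counting is not given in the sources used here, reads there cannot be assigned with certainty.

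Mmp13 (ENSMUSG00000050578, chr9:7272514-7283331, plus strand) is the main interstitial collagenase of mouse bone and cartilage, and Mmp12 (ENSMUSG00000049723, chr9:7344381-7369499, plus strand) encodes macrophage elastase. Both belong to the same gene cluster on chromosome 9. Mmp13 stood at 242, 192 and 205 CPM in VDRgem, at 165, 229, 125, 136 and 167 CPM in VDR-null, and at 137, 137, 163, 156 and 175 CPM in control. All VDRgem libraries lay above every control, but VDR-null 2 lay above 2 of the 3 VDRgem libraries. The log2 fold change for VDRgem against control was 0.47 (SE 0.16, edgeR adjusted p = 0.089) and did not pass. Without VDR-null 2 in the shared fit it was 0.48 and passed (edgeR adjusted p = 0.0257).

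Mmp12 was at the edge of detection, with 41, 39 and 42 counts in VDRgem, 23, 33, 5, 6 and 7 counts in VDR-null, and 6, 3, 23, 4 and 15 counts in control. Its level was 0.786, 0.858 and 0.513 CPM in VDRgem, 0.329, 0.591, 0.202, 0.116 and 0.178 CPM in VDR-null, and 0.194, 0.142, 0.348, 0.0843 and 0.241 CPM in control. VDRgem lay above control in every library, and VDR-null 2 lay within the VDRgem range. The fitted log2 fold change for VDRgem against control was 1.74 (SE 0.48, edgeR adjusted p = 0.0375), with a 95% interval of 0.81 to 2.68. This call was lost without VDRgem 1 (1.66, edgeR adjusted p = 0.158), without VDRgem 2 (1.61, adjusted p = 0.107), and without control 1, 2, 4 or 5 (adjusted p of 0.0742 to 0.0813). Markers of macrophages summed to 363 to 524 CPM in VDRgem, 365 to 504 CPM in VDR-null and 313 to 379.6 CPM in control. None of the 14 markers was at 0 in any library. Against control 1 of 14 rose in VDRgem, where 4.8% of all genes tested were called as higher. Of the 14, 2 rose in VDR-null against control, where 0.678% of all genes tested were called as higher. The part of macrophages in the Mmp12 result was not tested. Mmp1b, which overlaps Mmp12 by 157 bases on the opposite strand, held at most 0.022 CPM.

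The inhibitors came next. Timp1 (ENSMUSG00000001131, chrX:20870166-20874735, plus strand), an inhibitor induced by growth factors and cytokines, had 75.2, 63.4 and 64.1 CPM in VDRgem, 37.2, 55.1, 87.1, 53.0 and 40.7 CPM in VDR-null, and 43.6, 44.4, 47.7, 60.8 and 39.2 CPM in control. VDRgem libraries lay above every control, and VDR-null 3 was the highest library of all. Timp2 (ENSMUSG00000017466, chr11:118301069-118355740, minus strand), the partner of Mmp14 and pro-Mmp2, had 1127, 1015 and 1253 CPM in VDRgem, 981, 1274, 889.9, 869 and 903 CPM in VDR-null, and 805, 815, 971, 845 and 911 CPM in control. Here too VDRgem lay above every control, and VDR-null 2 was higher than any VDRgem library. Timp3 (ENSMUSG00000020044, chr10:86300372-86349506, plus strand), the inhibitor that stays bound to the matrix, had 527, 466 and 611 CPM in VDRgem, 435, 593, 428, 349 and 475 CPM in VDR-null, and 367, 406, 478, 413 and 407 CPM in control, so that VDRgem 2 fell inside the control range.

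None of the 3 inhibitors passed in VDRgem against control. The log2 fold changes were 0.52 for Timp1 (SE 0.22, edgeR adjusted p = 0.167), 0.38 for Timp2 (SE 0.13, edgeR adjusted p = 0.0821) and 0.37 for Timp3 (SE 0.14, edgeR adjusted p = 0.134). Their sizes overlapped those of the called Mmp11 and Mmp14, at 0.41 and 0.42, and their standard errors were larger. Timp2 passed without VDR-null 2 (0.38, edgeR adjusted p = 0.0237) and with DESeq2 (0.39, adjusted p = 0.0269). In VDR-null against control the values were 0.21 for Timp1, 0.18 for Timp2 and 0.14 for Timp3, with edgeR adjusted p-values of 0.55, 0.359 and 0.54. Exons of Timp3 share 1733 bases with Syn3 on the opposite strand, which held 0.71 to 2.16 CPM, and reads there cannot be assigned with certainty either.

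**Figure D2:**
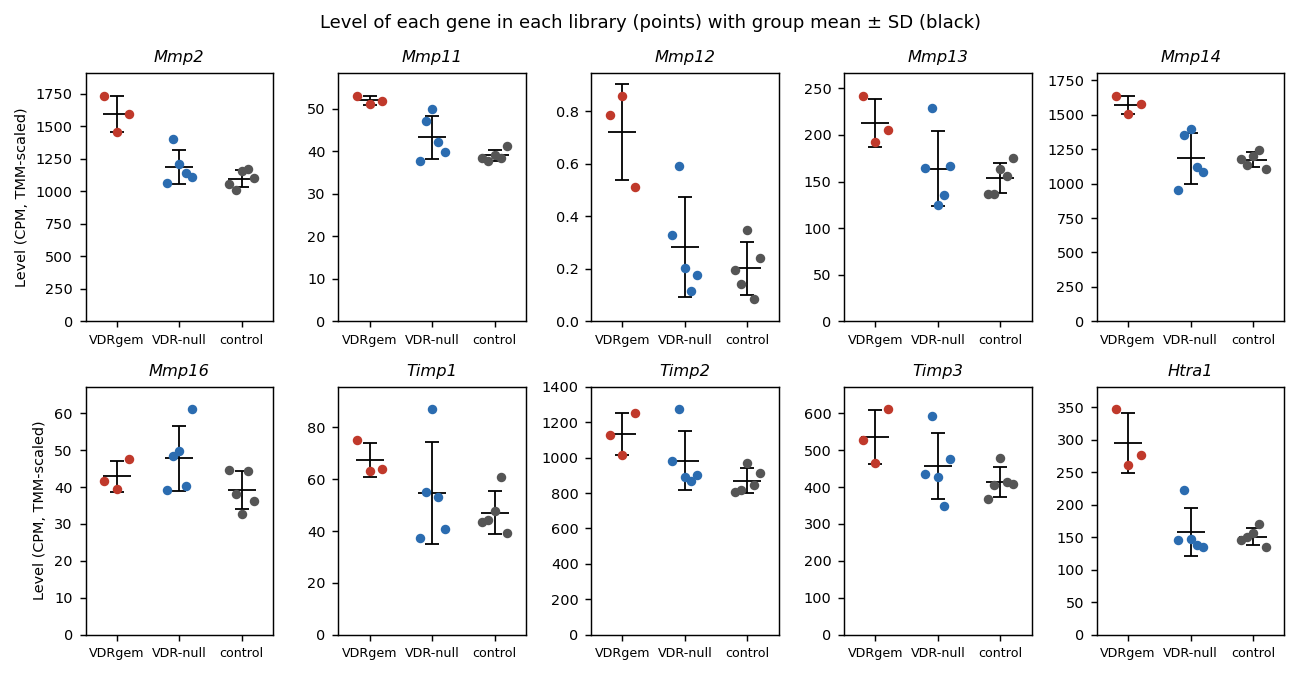
CPM after TMM scaling of each of the 10 genes, 1 panel per gene, with 1 point per library in VDRgem (n = 3), VDR-null (n = 5) and control (n = 5), and bars for mean ± SD in black. The VDRgem points lie above all control points for every gene but Mmp16 and Timp3, and the VDR-null points overlap the control points in all 10 panels.

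Taking the 10 genes as a group, every fold change in VDRgem against control was positive, with a median log2 value of 0.45 against 0.00 over all genes tested. In 8 of 10 genes every VDRgem library exceeded every control, against 9.01% of all genes tested. At an unadjusted edgeR p under 0.05, 9 of 10 passed, against 23.9% of all genes tested. The selection stated with the series combines a p below 0.05 with a log2 fold change beyond 0.3 in size. Read as an unadjusted p, that rule took 9 of 10 as well, against 19.0% of all genes tested. The 10 genes were chosen with earlier results of these data known, and several followed each other closely across libraries. These counts therefore describe the set and are no test of it.

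The VDR-null comparison gave a different count. None of the 10 was called against control, where 1.33% of all genes tested were called in either direction, and 1 of 10, Mmp16, had an unadjusted edgeR p under 0.05, against 22.8% of all genes tested. DESeq2 called 0 of the 10, against 9.23% of all genes tested, and limma-voom 0 of the 10, against 1.39%. The fold changes were all positive but small, from 0.01 for Mmp14 to 0.46 for Mmp12, with a median of 0.14 against 0.01 over all genes tested. No gene of the 10 had all VDR-null libraries above all controls, as 3.91% of all genes tested did. Leaving out VDR-null 2 brought the median to 0.02.

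Between the mutants, 4 of the 10 genes were higher in VDRgem than in VDR-null, where 18.8% of all genes tested were called, 10.6% as higher and 8.18% as lower in VDRgem. The log2 fold change was 0.90 for Htra1 (SE 0.15, edgeR adjusted p = 0.00344) and 0.43 for Mmp2 (SE 0.10, edgeR adjusted p = 0.0151). Mmp14 gave 0.41 (SE 0.12, edgeR adjusted p = 0.0268) and Mmp11 0.26 (SE 0.09, edgeR adjusted p = 0.0451). In these 4 genes all VDRgem libraries lay above all VDR-null libraries, against 9.17% of all genes tested. Mmp12 (1.28, edgeR adjusted p = 0.0671), Mmp13 (0.37, adjusted p = 0.115) and the 3 inhibitors (0.20 to 0.31, adjusted p of 0.277 to 0.34) did not pass, and Mmp16 was negative at -0.15 (adjusted p = 0.472). The comparison shares the VDRgem libraries with the one against control. Htra1 was the only one of the 4 that passed without VDRgem 1. The Mmp14 call was also lost without VDRgem 2 (0.46, edgeR adjusted p = 0.0526), VDR-null 4 (0.39, adjusted p = 0.0512) or VDR-null 5 (0.38, adjusted p = 0.0538), and the Mmp11 call without VDRgem 2, VDR-null 1, 4 or 5, or control 1, 2, 4 or 5 (adjusted p of 0.0546 to 0.0881). Htra1 alone passed when the fit held only the libraries of the 2 mutants. In that fit the edgeR adjusted p was 0.0709 for Mmp2, 0.096 for Mmp14 and 0.12 for Mmp11.

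**Figure D3:**
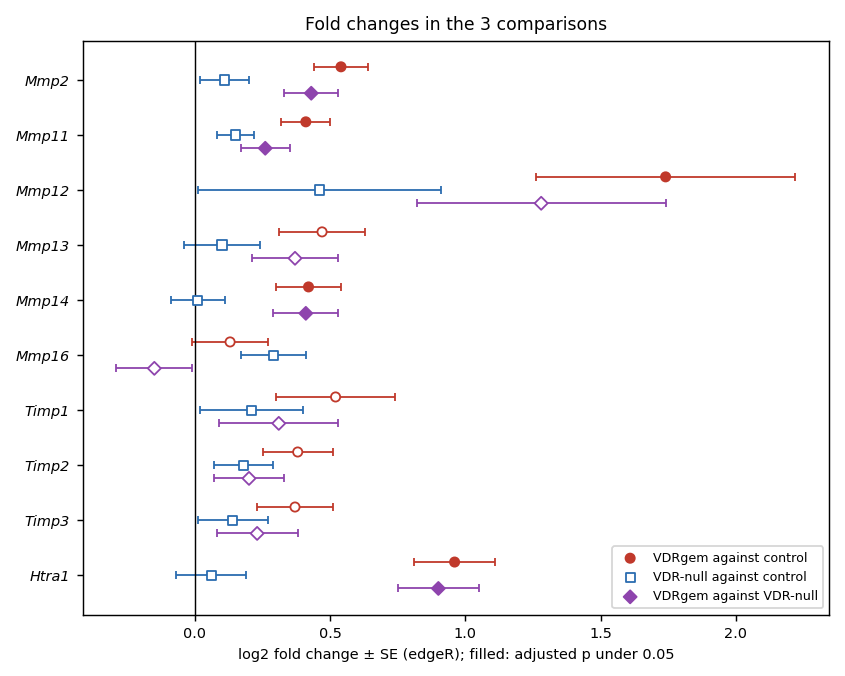
Log2 fold change ± SE from edgeR for each gene in VDRgem against control (circles), VDR-null against control (squares) and VDRgem against VDR-null (diamonds), with filled symbols for adjusted p under 0.05. Filled circles appear for Mmp2, Mmp11, Mmp12, Mmp14 and Htra1, filled diamonds for Mmp2, Mmp11, Mmp14 and Htra1, and no square is filled.

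The libraries differed in how many members they raised. VDRgem 3 had all 10 members above every control, VDRgem 1 had 9 and VDRgem 2 had 8, while 31.2%, 23.7% and 25.6% of all genes tested lay above every control in VDRgem 1, 2 and 3. VDRgem 1 was the highest VDRgem library for 6 members and VDRgem 2 the lowest for 9. Among VDR-null libraries, VDR-null 2 had 9 of 10 members above every control, all but Timp1, and VDR-null 3 had 5, namely Mmp2, Mmp11, Mmp14, Mmp16 and Timp1. VDR-null 1, 4 and 5 had 1 each. For all genes tested the share above every control was 29.1% in VDR-null 2 and 24% to 28.9% in the other VDR-null libraries.

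**Figure D4:**
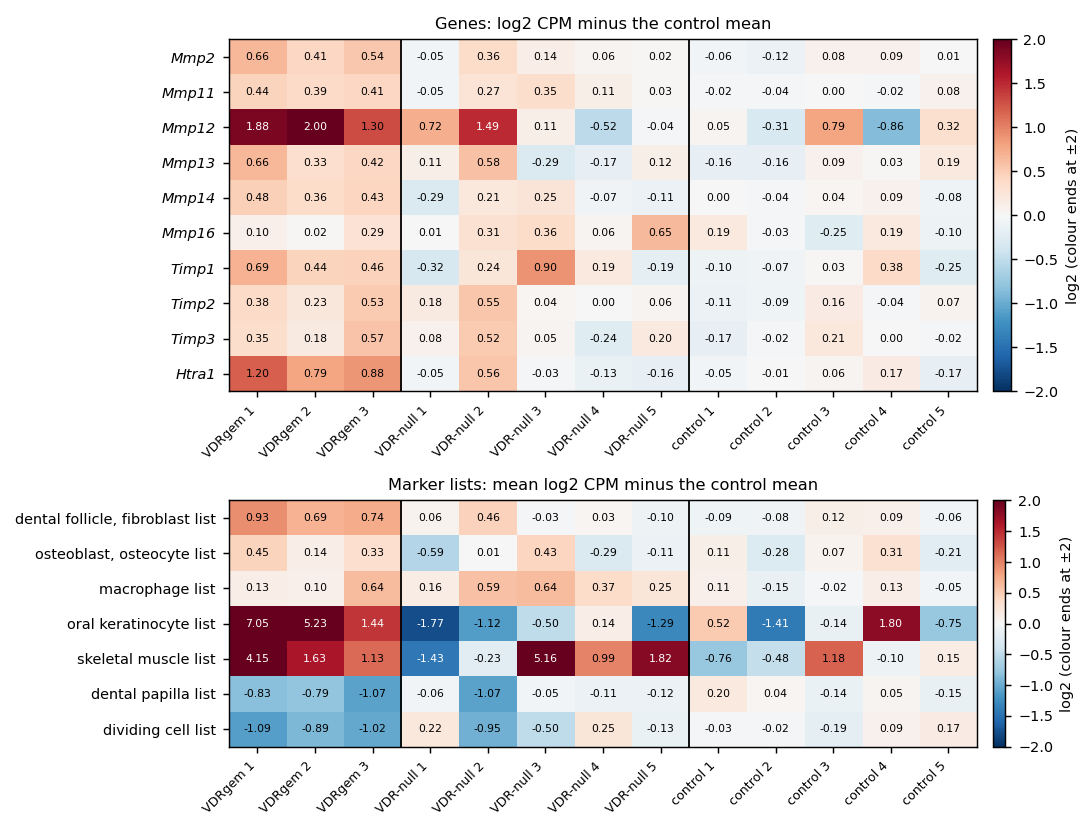
Log2 CPM of each gene (top) and mean log2 CPM of each marker list (bottom) in every library, minus the mean of the controls, with red for higher and blue for lower. VDR-null 2 shows Mmp2, Mmp13, Timp2, Timp3 and Htra1 shifted by 0.36, 0.58, 0.55, 0.52 and 0.56, unlike the other VDR-null libraries.

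Several marker lists moved with these libraries. Their calls in VDRgem against control stand beside 4.8% of all genes tested called as higher and 3.82% as lower. Of the 13 tested oral keratinocyte markers 12 rose in VDRgem against control, and the list summed to 322 to 17322 CPM in VDRgem, 27.2 to 137 CPM in VDR-null and 31.6 to 556 CPM in control. Of its markers, Ivl had no count in 10 libraries, the VDRgem ones among them, and Sprr1a and Sprr1b had none in up to 3. The keratinocyte level of VDRgem 3, 2.14 log2 CPM, lay inside the control range only through control 4 at 2.5, with control 1 next at 1.22. VDRgem 3 was the library with all 10 members above every control. VDR-null 2 had 9 members above every control at a keratinocyte level of -0.42. The part of keratinocytes in the levels of the 10 genes was not tested. With VDRgem 3 as the only VDRgem library, the log2 fold changes against control were 0.86 for Htra1 and 0.53 for Mmp2, with 0 of the 10 genes and 5 genes in all called by edgeR. In that fit 6 of the 10 had an unadjusted p under 0.05, against 11.3% of all genes tested.

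Dental follicle and fibroblast markers, such as Postn and Col3a1, also differed by library. Their mean was 8.70, 8.46 and 8.51 log2 CPM in VDRgem, 7.83, 8.23, 7.74, 7.80 and 7.67 in VDR-null and 7.68 to 7.89 in control, so that VDR-null 2 again lay above the controls. Of 12 such markers 7 rose in VDRgem, none was at 0 in any library, and the list summed to 28051 to 33896 CPM in VDRgem, 18739.7 to 28075 CPM in VDR-null and 18293 to 21758 CPM in control. Markers of dividing cells, all 12 of which fell in VDRgem, stood at 4.19 to 4.39 log2 CPM in VDRgem, 4.33 in VDR-null 2, 4.78 to 5.53 in the other VDR-null libraries and 5.09 to 5.45 in control. Dental papilla markers, of which 6 of 12 fell in VDRgem, stood at 3.21 to 3.49 log2 CPM in VDRgem, 3.21 in VDR-null 2, 4.16 to 4.23 in the other VDR-null libraries and 4.13 to 4.48 in control. Osteoblast markers, of which 1 of 14 rose in VDRgem and none was at 0, overlapped between the groups on the mean scale, at 7.86 to 8.17 log2 CPM in VDRgem, 7.13 to 8.15 in VDR-null and 7.44 to 8.03 in control. Their summed level did not overlap between VDRgem and control. The sum was 118141 to 126334 CPM in VDRgem, 43624 to 123680.1 CPM in VDR-null and 65475 to 109024 CPM in control. Most of it was Col1a1, at 112289 to 120674 CPM in VDRgem and 60981 to 103278 CPM in control. Col1a1, also in the odontoblast list, did not pass in VDRgem against control (0.45, edgeR adjusted p = 0.341). Osteoclast markers, of which 1 of 13 rose in VDRgem and none was at 0, summed to 1076 to 1691 CPM in VDRgem, 573 to 1067 CPM in VDR-null and 774 to 1095 CPM in control. Skeletal muscle markers, of which 1 of 14 tested rose in VDRgem, summed to 37.1 to 303 CPM in VDRgem, 7.26 to 773 CPM in VDR-null and 10.3 to 35.5 CPM in control. Their highest level was in VDR-null 3, the library with the most Timp1, and Actc1, Ckm and Myog had no count in up to 2 libraries.

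The follicle and osteoblast lists matched different members across the 13 libraries, and other lists followed several members as closely. With the follicle and fibroblast list, Pearson's r of log2 CPM was 0.985 for Htra1 and 0.963 for Mmp2, and 0.937 and 0.838 after the group means were removed. Mmp14 and Timp1 gave 0.837 and 0.569 with that list, and 0.851 and 0.834 with the osteoblast list. After the group means were removed Mmp14 gave 0.46 with the follicle list and 0.877 with the osteoblast list, and Timp1 gave 0.218 and 0.855. Mmp16 gave -0.014 with the follicle list. With the dividing-cell list r ran from -0.254 for Mmp16 to -0.912 for Mmp2, with -0.909 for Mmp14 and -0.894 for Htra1. Mmp2, Mmp14 and Htra1 gave -0.74, -0.81 and -0.734 with that list after the group means were removed. Timp2 gave -0.943 with the dental papilla list, and -0.914 after the group means were removed. The points share libraries and scaling, and the part of any of these cell types in the levels of the 10 genes was not tested.

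**Figure D5:**
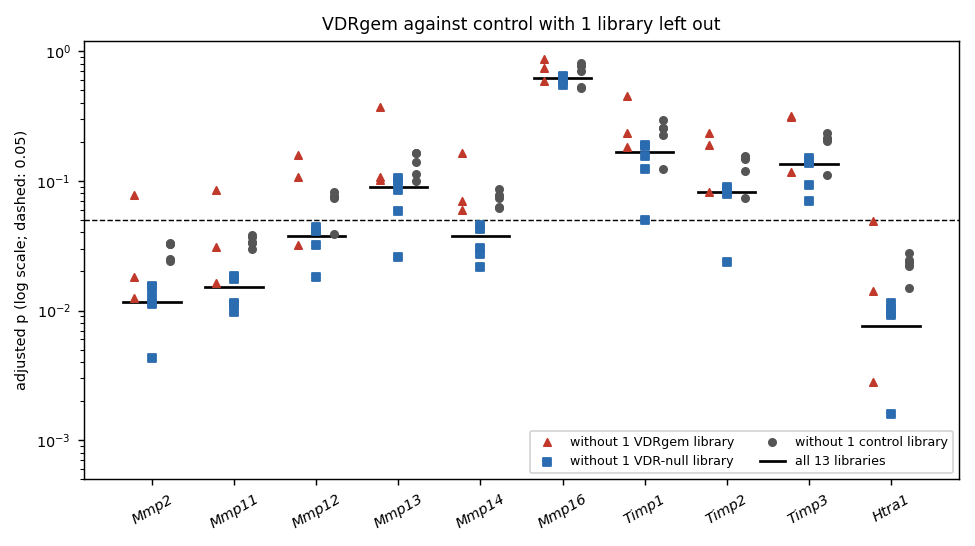
Adjusted p from edgeR (log axis) for VDRgem against control with each library left out in turn, by gene, with a bar for the fit of all 13 libraries and a dashed line at 0.05. Htra1 stays below the line in every fit, with 0.0489 without VDRgem 1 as its highest value, whereas Mmp14 crosses it when any VDRgem or control library is left out.

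Ratios of enzyme to inhibitor transcripts were computed per library. The summed level per kb of the 6 metalloproteinases over that of the 3 inhibitors was 1.95 ± 0.142 in VDRgem (SD, n = 3), 1.72 ± 0.0974 in VDR-null (n = 5) and 1.83 ± 0.0792 in control (n = 5), and the VDRgem range of 1.79 to 2.06 overlapped that of VDR-null and that of control. The ratio of Mmp14 to Timp2 per kb was 0.914 ± 0.0801 in VDRgem, 0.796 ± 0.148 in VDR-null and 0.887 ± 0.0795 in control. Timp2 made up 67.2% ± 1.36 of the summed inhibitor level in VDRgem, 68.2% ± 4.7 in VDR-null and 68.2% ± 2.46 in control. These ratios are descriptions of transcripts and hold no measure of enzyme activity.

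Across the 13 libraries some members followed each other closely. Pearson's r of log2 CPM was 0.954 between Mmp2 and Htra1, 0.918 between Timp2 and Timp3, 0.905 between Mmp2 and Mmp14, and 0.847 between Mmp14 and Timp1. After the group means were removed the same pairs gave 0.844, 0.877, 0.773 and 0.866. Mmp16 stood apart, with r between -0.108 and 0.276 to the other members. The points share libraries and scaling, and these values describe the 13 libraries.

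Of the genes averaging 5 CPM or more, the one most like Htra1 across the 13 libraries was Gpx3 (r = 0.956), and the one most like Mmp2 was Axl (r = 0.958), with 0.878 and 0.852 after the group means were removed. Mmp14 was most like Cercam (r = 0.978) and Man1c1 (r = 0.968), and Mmp11 most like Arhgap24 (r = 0.948). Mmp13 was most like Cp (r = 0.960) and Mmp12 most like Peli3 (r = 0.916). The inhibitors had other neighbours. Timp1 was most like Ctsz (r = 0.962) and Ctsa (r = 0.960), Timp2 was close to Postn (r = 0.941), and Timp3 most like Fap (r = 0.929) and then Timp2. Mmp16 was most like Daam2, at r = 0.910.

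The wider protease families were read from lists written with earlier results of these data known. The calls and medians below are edgeR's for VDRgem against control. In that comparison 4.8% of all genes tested were called as higher and 3.82% as lower. The list calls rest on VDRgem 1. Of 23 list genes called in all, edgeR called 0 without VDRgem 1, where calls over all genes tested fell from 8.62% to 0.364%. Their edgeR adjusted p-values were then 0.0598 to 0.327, and all 23 stayed on the same side. In that fit 22 had an unadjusted p under 0.05, against 15.5% of all genes tested. Without VDRgem 2 edgeR called 14, against 5.54% of all genes tested. With the keratinocyte covariate it called 0 of the 23 and 0 of all genes tested. There 6 had an unadjusted p under 0.05, against 14% of all genes. Without VDRgem 1 and 2 all 23 stayed on the same side. The 23 were selected by their calls in the full fit, and these counts were made after the data were seen. They are therefore no further support. Of 8 other metalloproteinases tested 3 rose and none fell, with a median log2 fold change of 0.40. Mmp19 rose by 0.74 (SE 0.16, edgeR adjusted p = 0.0174), Mmp28, or epilysin, by 0.61 (SE 0.14, adjusted p = 0.0228) and Mmp23 by 0.57 (SE 0.14, adjusted p = 0.0278). Mmp9, the gelatinase of osteoclasts and neutrophils, gave 0.48 (SE 0.24, adjusted p = 0.24), and Mmp20, the enamel metalloproteinase of ameloblasts, 0.02 (adjusted p = 0.954). In VDR-null against control none of the 8 was called and the median was -0.01.

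Htra3, the relative of Htra1 closest in domain structure, rose as well. It averaged 233 ± 26.7 CPM in VDRgem (SD, n = 3), 164 ± 44.6 CPM in VDR-null (n = 5) and 151 ± 5.95 CPM in control (n = 5), a log2 fold change of 0.62 in VDRgem against control (SE 0.18, edgeR adjusted p = 0.0415). It was 1 of 3 other HtrA genes to pass. Of 6 other metalloproteinase inhibitors tested, such as Reck, a membrane-anchored inhibitor at 0.03, none passed, 5 had positive values in VDRgem against control, and the smallest p-values belonged to A2m (-0.95, edgeR adjusted p = 0.153) and, in VDR-null against control, Spock2 (-0.22, edgeR adjusted p = 0.171).

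Of 18 ADAMTS proteases tested, secreted enzymes that include the procollagen and proteoglycan proteases, 3 rose and 1 fell in VDRgem. Adamts2, which removes the amino-terminal propeptide of fibrillar procollagen, rose by 0.40 (SE 0.11, edgeR adjusted p = 0.0333), Adamts7 by 0.55 (SE 0.14, adjusted p = 0.0276) and Adamts15 by 0.90 (SE 0.24, adjusted p = 0.032). Adamts19 moved the other way, at -1.44 (SE 0.36, edgeR adjusted p = 0.0269), with 6.91 ± 2.93 CPM in VDRgem and 18.6 ± 2.16 CPM in control. Among 8 membrane ADAM proteases Adam15 alone passed, at 0.54 (SE 0.16, edgeR adjusted p = 0.0479).

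Of 13 activators and plasmin system genes 2 rose and none fell. Pcsk6, a proprotein convertase, rose by 0.48 (SE 0.11, edgeR adjusted p = 0.0228), while Furin gave 0.29 (adjusted p = 0.207). Of 13 other matrix proteases, Ctsl, a lysosomal cysteine protease, rose by 0.38 (SE 0.10, edgeR adjusted p = 0.0364) and Klk4, the serine protease of enamel maturation, by 0.81 (SE 0.24, adjusted p = 0.0494). In VDR-null against control none of these genes was called, nor was any ADAMTS or ADAM gene.

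Of 20 matrix substrates 5 rose in VDRgem and none fell, with a median of 0.42. Col3a1, a fibrillar collagen of soft connective tissue, averaged 19918 ± 2659 CPM in VDRgem (SD, n = 3), 10826 ± 2636 CPM in VDR-null (n = 5) and 11016 ± 1227 CPM in control (n = 5), a log2 fold change of 0.85 in VDRgem against control (SE 0.17, edgeR adjusted p = 0.0138). Eln, which encodes elastin, rose by 1.09 (SE 0.24, edgeR adjusted p = 0.0184), Col5a1 by 0.66 (SE 0.15, adjusted p = 0.0198) and Col6a1 by 0.47 (SE 0.11, adjusted p = 0.0228), and Acan passed too. Dcn, a small proteoglycan that binds collagen fibrils, was the only substrate called in VDR-null against control, at 0.47 (SE 0.10, edgeR adjusted p = 0.0402), with 912 ± 42.1 CPM in VDRgem, 1015 ± 152 CPM in VDR-null and 733 ± 39.8 CPM in control. That call was lost without VDR-null 1 (edgeR adjusted p = 0.0579), VDR-null 2 (0.43, adjusted p = 0.115) or VDR-null 5 (adjusted p = 0.0515). Col3a1 and Dcn are also members of the follicle and fibroblast marker list.

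Of 19 inducers of metalloproteinases and AP-1 subunits tested 5 rose in VDRgem and none fell, with a median of 0.65. The early response gene Egr1 rose by 2.48 (SE 0.43, edgeR adjusted p = 0.00982), the AP-1 subunits Fos by 2.03 (SE 0.36, adjusted p = 0.00982), Junb by 1.68 (SE 0.41, adjusted p = 0.0251) and Fosl2 by 0.66 (SE 0.11, adjusted p = 0.00982), and the cytokine Osm passed as well. Egr1 ranged from 39.9 to 218 CPM in VDRgem, from 15.2 to 45.4 CPM in VDR-null and from 21 to 36.3 CPM in control. Even the lowest VDRgem library thus lay above every control. Without VDRgem 1 and 2 the log2 fold changes against control were 0.59 for Egr1, 0.69 for Fos and 0.49 for Junb. Fosl2 and Osm gave 0.6 and 1.29 in that fit. Osm was scarce, averaging 0.455 CPM in VDRgem and 0.163 CPM in control. With the keratinocyte level as a covariate, Egr1, Fos, Junb, Fosl2 and Osm gave 0.56, 0.48, 0.16, 0.56 and 1.09. The sizes given above for Egr1, Fos and Junb therefore rest largely on VDRgem 1 and 2. Mmp13 and Mmp12, whose windows hold the AP-1 letters printed above, both had every VDRgem library above every control. So did Mmp11, Mmp14, Timp1, Timp2 and Htra1, whose windows hold no such letters, and Mmp2, for which no window was found. In edgeR Mmp12 passed and Mmp13 did not, but neither result was firm. Mmp13 passed with DESeq2 (0.48, adjusted p = 0.044), and the Mmp12 call was lost without VDRgem 1 or VDRgem 2. The part of AP-1 in either gene was not tested. None of the 19 was called in VDR-null against control.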

How the data were processed

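Per the labels' protocols, whole lower incisors gave poly-A RNA for stranded libraries, with an input of 300 ng and 12 cycles of PCR. The authors deposited unscaled whole-number counts per Ensembl gene. The submitters' processing notes name HTSeq 0.6.1p1, STAR 2.5.3a, bcl2fastq 2.20.0.422 and the build mm10. Which annotation release, counting mode and strand setting were used is not given in the sources used here. Symbols for 34618 of 34709 genes, coordinates and exon lengths were taken from GENCODE M21 (GRCm38, which is mm10), and promoter windows from RefSeq on GRCm38.p6.

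A single edgeR 4.0.16 model (R 4.3.3) with group means held all 13 libraries, scaled by TMM and filtered by filterByExpr at a minimum count of 10. Comparisons were quasi-likelihood tests, with p-values adjusted after Benjamini and Hochberg over 17837 genes, and log2 CPM used a prior count of 2. The tests were tried on simulated counts. Alternatives were DESeq2 1.42.0, limma-voom (limma 3.58.1), other scalings, filters and thresholds, only the groups compared, leaving out libraries, and the keratinocyte list as a covariate. Where 1 VDRgem library is left, its spread is taken from the other groups. Total counts of 20405188 or more per library leave counting error relevant only for Mmp12 among the 10 genes. An exact permutation test over libraries (scipy 1.17.1, two-sided) was a further alternative.

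The 10 genes and all lists were chosen with earlier results of these data known. Genes named besides them were, per pathway list, up to 4 called in a comparison with control by smallest p, or the 2 with the smallest p where none was called. Pattern likeness took the 2 genes with the highest r. A few genes taken by these rules are not reported here. Mmp9, Mmp20, Furin, Reck, Acan, Osm and Col6a1 were named after their values were seen or as familiar genes of their list. Figures were drawn with matplotlib 3.10.9.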

Additional observations from a re-analysis of the deposited data

Results flagged for a closer look

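VDR-null 2 stood away from the other VDR-null libraries in 2 genes, by the gap to its nearest neighbour relative to the range of the group. Htra1 was at 223 CPM in VDR-null 2 and at 135 to 148 CPM in the other VDR-null libraries, and Timp2 was at 1274 CPM in VDR-null 2 and at 869 to 981 CPM in the others. In all, 20 sets of values were screened, 1 for each gene in each group of 5 libraries, and 2 held such a sample. Chance gives about 1 in 20 sets if the sets are independent. These sets share libraries, and the sample was VDR-null 2 each time. Htra1 and Timp2 also followed each other across libraries (Pearson's r = 0.767, and 0.69 after the group means were removed). The chance rate therefore does not apply to this pair. VDR-null 2 was also the VDR-null library with higher follicle markers and lower dividing-cell markers.

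The effects of the mutants against their shared controls differed in 4 genes, tested as VDRgem against VDR-null with edgeR. The log2 fold changes were 0.90 for Htra1 (adjusted p = 0.00344), 0.43 for Mmp2 (adjusted p = 0.0151), 0.41 for Mmp14 (adjusted p = 0.0268) and 0.26 for Mmp11 (adjusted p = 0.0451). Without VDR-null 2 the value of Htra1 was 1.08 (edgeR adjusted p = 0.000169). Mmp12, Mmp13 and Timp2 passed too, at 1.76, 0.54 and 0.33, and 17.4% of all genes tested were called. VDR-null 2 was flagged by its high Htra1 and Timp2 levels and was the highest VDR-null library for 6 members. Larger differences without it follow from that choice and are no further support.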

How the results depend on the processing

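Every member called under any setting was higher in VDRgem. For VDRgem against control 5 members were called in the report. With only the 2 groups in the fit 8 were called (11.2% of all genes tested), and 9 by unadjusted p and fold change (19.0%). With 1 library left out 1 to 7 were called, and 0.364% to 11.1% of all genes tested. With the keratinocyte covariate 0 were called, with 5 at an unadjusted p under 0.05, as were 14% of all genes, and without VDRgem 1 and 2 again 0, with 6 at an unadjusted p under 0.05. For VDRgem against VDR-null, with 4 called in the report, 1 was called with only the 2 groups (4.3% of all genes tested). With 1 library left out 1 to 7 were called, and 2.39% to 25.2% of all genes tested. With the covariate 0 were called, with 1 at an unadjusted p under 0.05 (6.32% of all genes), and without VDRgem 1 and 2 also 0, with 3 (9.11%). The covariate itself was higher in VDRgem 1 and 2 than in any control. With it the VDRgem against control values were 0.77 for Htra1 and 0.43 for Mmp2, and the standard errors were larger. The inhibitors did not move together, with 0.55 for Timp2 and 0.61 for Timp3, but 0.1 for Timp1 in place of 0.52. In VDR-null against control edgeR, DESeq2 and limma-voom called 0 in every setting, with 0 to 2 members at an unadjusted p under 0.05. Over these settings 13.7% to 25.3% of all genes tested had an unadjusted p under 0.05. With 1 library left out 0.0333% to 3.75% of all genes tested were called there.

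Signs turned only in values that were not called. Mmp16 in VDRgem against control was -0.04 by library totals, and Timp1 in VDRgem against VDR-null was -0.19 with the covariate. In VDR-null against control, leaving out VDR-null 2 gave -0.01 for Mmp12, -0.07 for Mmp13, -0.11 for Htra1 and -0.06 for Mmp14, and leaving out VDR-null 3 gave -0.06 for Mmp14 and -0.02 for Timp1. Mmp14 there was also -0.01 by library totals or without control 5, and -0.00 with only the 2 groups, without VDRgem 2, VDRgem 3 or control 2, and as a plain difference of log2 means. With 1 library left out, the VDR-null values ran from -0.01 to 0.77 for Mmp12, -0.07 to 0.18 for Mmp13, -0.06 to 0.08 for Mmp14, -0.02 to 0.32 for Timp1 and -0.11 to 0.11 for Htra1. The cause was not tested.

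Over all genes, 1537 calls in VDRgem against control became 66 without VDRgem 1, 5 without VDRgem 1 and 2, 0 with the covariate (2494 at an unadjusted p under 0.05), 2320 with DESeq2 and 981 with limma-voom. Calls in VDR-null against control were 238, against 1647 with DESeq2 and 6 to 685 with 1 library left out, and calls in VDRgem against VDR-null were 3346, against 434 to 4610 with 1 left out. Library totals shifted the median of all genes by -0.168 in VDRgem against control and by -0.188 in VDRgem against VDR-null. The split of higher and lower calls was then 589 and 1576 in place of 856 and 681, and 1310 and 3616 in place of 1887 and 1459. No paired analysis was possible because the labels give no replicate numbers. Depth limits only Mmp12.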
